A study of Mus musculus with 6 samples.

Results

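Integrins and laminins are the receptors and the matrix proteins of one adhesion system, and both sets were read here in the pressure-loaded mouse heart with and without PD-1 blockade. The set holds every protein-coding gene of the count table whose symbol starts with Itga or Itgb followed by a letter or digit, apart from the Itgb1bp, Itgb3bp and Itgbl genes, and every Lama, Lamb and Lamc chain. That rule gave 38 genes of 54929 listed, 27 integrin subunits and 11 laminin chains. The study profiled mRNA from the left ventricle of wild-type C57BL/6 mice by sequencing. All mice had undergone TAC, transverse aortic constriction, an operation that narrows the aorta and makes the left ventricle pump against a raised pressure. One group then received an anti-IgG control antibody and the other an anti-PD-1 antibody, which blocks an inhibitory receptor of T cells. Each antibody went into the peritoneal cavity at 10 mg/kg, once in 3 days from day 14 after surgery, and the labelled time is 5 weeks. Each group has 3 libraries, and no unoperated group was analysed here, so every difference below lies between 2 groups of operated hearts. Age and sex are not given in the labels, nor whether each library came from its own animal, so the p-values reflect no more than how far these libraries spread, which may be technical.

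An integrin is a pair of 1 alpha and 1 beta chain in the cell membrane: outside the cell it grips matrix or a neighbouring cell, and inside it links through talin, vinculin and other adaptors to the actin cytoskeleton. A laminin is a cross-shaped trimer of an alpha, a beta and a gamma chain, and laminins form the sheet of the basement membrane around each cardiomyocyte and beneath each endothelial cell. In muscle, laminin with the alpha 2 chain is held by integrin alpha 7 beta 1 and by dystroglycan. Another family of integrins, built on beta 2, beta 7 or alpha 4, is carried mainly by leukocytes and serves their adhesion to vessel walls and their entry into tissue.

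Of the 38 genes, 34 had enough reads to be tested. Lama2, the laminin alpha chain of muscle, rose 2.34-fold with anti-PD-1. Itga9, a receptor chain for tenascin and other matrix ligands, rose 2.65-fold. Itgb3, Itgav and Itgb8, chains of receptors for vitronectin and latent TGF-beta, rose 2.49-fold, 1.82-fold and 2.24-fold. The 6 tested leukocyte integrins held 0 that rose and 0 that fell. Called here means a Benjamini-Hochberg adjusted p under 0.05 in the edgeR quasi-likelihood test over all 14807 tested genes.

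The 5 members that rose and 0 that fell made 14.7% of the tested members, while 21.1% of all tested genes were called. Among all genes 10.3% rose and 10.8% fell, so that 48.9% of the calls were rises, or 36.8% with upper quartile scaling, which moved the median of all genes to -0.12. The share of members called was thus below that of all genes, while all 5 called members lay on one side. By DESeq2 8 members rose and 0 fell, by limma-voom 4 rose and 0 fell, and at an unadjusted edgeR p under 0.05 there were 12 members, 2 of them lower. With 1 library left out, edgeR called 2 members (Itga9 and Lama2) when that was control library 2 or anti-PD-1 library 1, 3 when it was library 3 of either group, 5 when it was anti-PD-1 library 2 and 6 when it was anti-IgG library 1. Over all genes the calls went from 3118 to 532 without anti-IgG library 2. The median log2 fold change was 0.36 over the 34 tested members and -0.03 over all tested genes. On this scale 27 members were positive and 7 negative. In 8 members all anti-PD-1 libraries lay above all anti-IgG libraries, against 20.2% of all genes, and in 2 members, Itgam and Itga10, all lay below, against 20.8% of all genes.

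Gene length moved with the fold changes. Over the 14807 tested genes the Spearman correlation of the log2 fold change with the authors' gene length was 0.49, and over the 34 members it was 0.30. Genes are not independent replicates, so these are descriptions. The tested members had a median length of 7063 bp and all tested genes one of 4163 bp. With each library's trend on that length removed in the edgeR fit, 3 members rose (Itga9, Itgb3 and Lama2) where 5.17% of all genes rose, and the members' median was 0.15. With the trend on the length of coding sequence and 3' UTR removed, 1 member rose (Lama2) where 3.45% of all genes rose, and the median was 0.08. Beyond these fits, the part of length in the members' values was not tested.

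**Figure D1:**
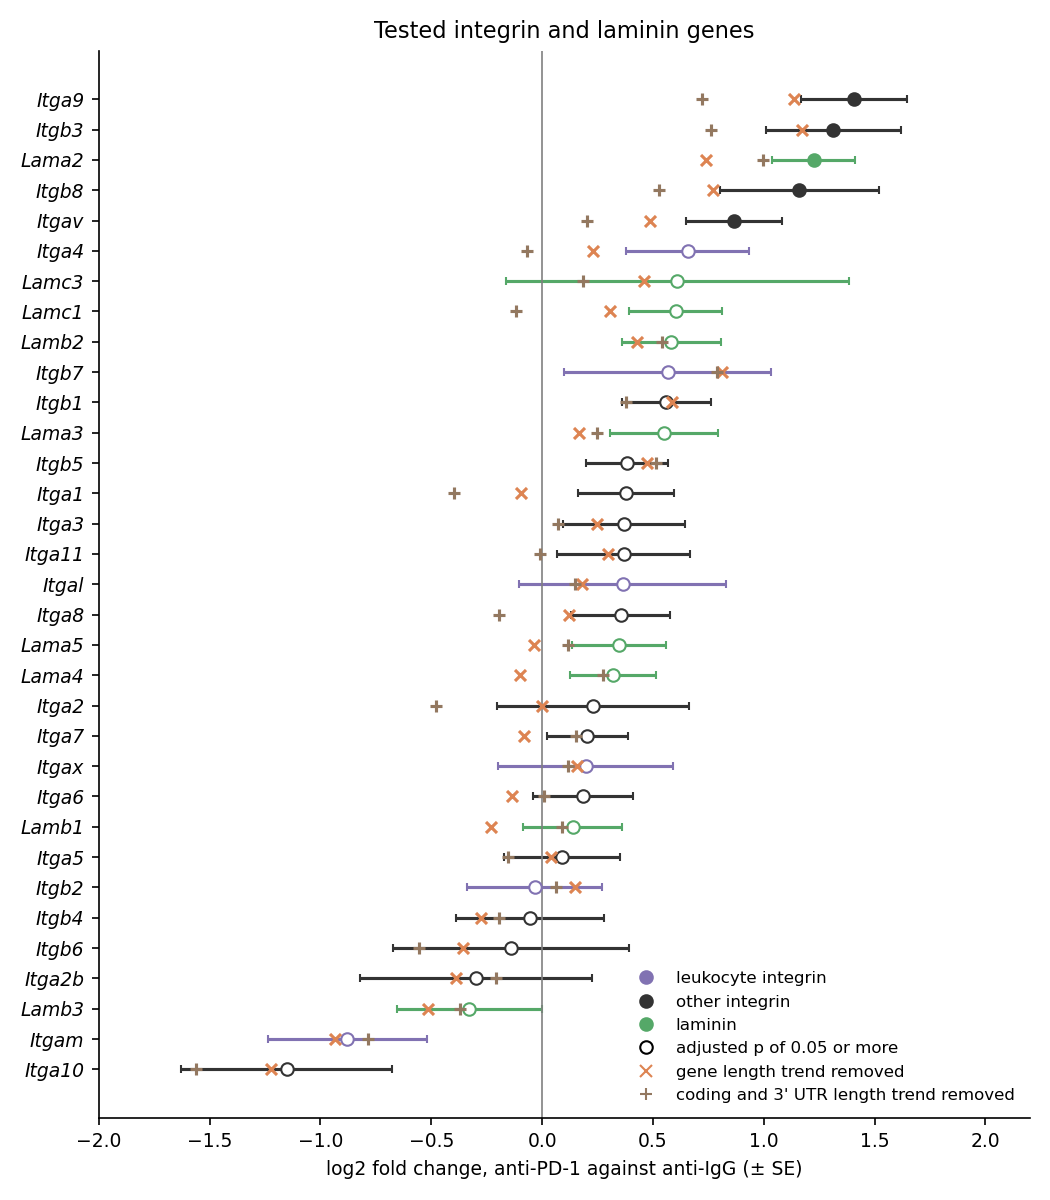
Tested integrin and laminin genes are lines on the vertical axis (1 of the 34 is not drawn), and the horizontal axis is the log2 fold change of anti-PD-1 against anti-IgG from edgeR. Points are estimates with bars of 1 SE, filled where the adjusted p is under 0.05, and crosses and plus signs are the estimates after removal of the 2 length trends. The 5 filled points lie between 0.87 and 1.41, and the crosses lie left of most points, so that the median of 0.36 becomes 0.15.

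Stretches of DNA just before a listed transcript start are shown for Lama2, Itgav and Itgam. They set a pair of genes that rose beside the leukocyte integrin with lower values. Each is the 250 bases upstream of a start in RefSeq's promoter table (GRCm38.p6), read 5' to 3' on the gene's own strand. Capitals mark the purine box GAGGAA, a core sequence of ETS-family factors, and the GC box GGGCGG, a core of Sp-family factors, each searched on both strands (TTCCTC and CCGCCC are their reverse complements).
Lama2, chr10:27616943-27617192, minus strand: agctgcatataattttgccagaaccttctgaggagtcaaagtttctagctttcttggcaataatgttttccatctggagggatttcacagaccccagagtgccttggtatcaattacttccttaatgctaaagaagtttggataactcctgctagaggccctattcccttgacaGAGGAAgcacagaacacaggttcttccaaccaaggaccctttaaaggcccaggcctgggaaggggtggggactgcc
Itgav, chr2:83724147-83724396, plus strand: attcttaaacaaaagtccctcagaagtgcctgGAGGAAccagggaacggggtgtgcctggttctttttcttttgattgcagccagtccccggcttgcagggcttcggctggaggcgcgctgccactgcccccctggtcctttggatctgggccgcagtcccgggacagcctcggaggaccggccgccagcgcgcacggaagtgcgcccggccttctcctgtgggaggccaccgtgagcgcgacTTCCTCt
Itgam, chr7:128062390-128062639, plus strand: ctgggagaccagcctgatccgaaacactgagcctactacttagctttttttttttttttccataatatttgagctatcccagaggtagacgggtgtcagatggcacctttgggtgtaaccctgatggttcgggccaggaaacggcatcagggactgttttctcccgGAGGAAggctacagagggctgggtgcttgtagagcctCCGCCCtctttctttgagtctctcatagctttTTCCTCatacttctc
The Lama2 stretch has 0 CpG pairs and 1 purine box, and it lies inside the span of the gene, at the start of a transcript shorter than the longest one. The Itgav stretch is a CpG-rich one, with 18 CpG pairs and 2 purine boxes, one of them within the last bases before the start. The Itgam stretch has 6 CpG pairs, 1 GC box and 2 purine boxes. Itga9 and Itgb8 also rose, and their stretches, not shown, have 0 purine boxes and 0 GC boxes. Itgb3 has no stretch in that promoter table. The RefSeq table held 24 of the 38 genes with 27 such stretches. Some of these overlap GENCODE exons of the member's own gene, by 250 bases in Itgb8, 180 in Itga2b and 171 in a Lamb3 stretch. The shares below therefore include some transcribed sequence. The purine box stood in 14 of these 27 (51.9%) and in 23.3% of all 32851 stretches in the table. The GC box stood in 33.3% of the members' stretches and 32.7% of all, and TATAAA in 0 of 27 and 12.4% of all. A match of letters is a description and does not show that a factor binds there.

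The laminin alpha chains carry the end domains that cell receptors hold. Lama2 was the only one of 4 tested to pass the threshold, which 21.1% of all tested genes passed. Lama2 (ENSMUSG00000019899, mm10 chr10:26980036-27619758, minus strand) encodes the alpha chain of laminin-211 and laminin-221, the laminins of muscle basement membrane, whose loss causes a congenital muscular dystrophy. It had 81.8, 64.2 and 80.2 TMM-scaled CPM (counts scaled to a common library size by edgeR) in the 3 anti-IgG libraries and 157, 195 and 177 in the 3 anti-PD-1 libraries. The lowest anti-PD-1 library was well above the highest anti-IgG library. Its log2 fold change was 1.23 with an SE of 0.19 and an adjusted edgeR p of 0.00503, and the call held without any 1 library and under every other alternative run, with both length trends included. With the trend on gene length removed the log2 fold change was 0.74 (edgeR adjusted p 0.034), and with the trend on coding and 3' UTR length removed it was 0.99 (edgeR adjusted p 0.0164).

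Lama4, the alpha chain of endothelial and vascular basement membranes, had 116, 122 and 123 CPM with anti-IgG and 162, 116 and 172 with anti-PD-1. The groups overlapped, since anti-PD-1 library 2 stood at the level of the control libraries. The log2 fold change of Lama4 was 0.32 with an SE of 0.19 and an edgeR adjusted p of 0.253, and its sign turned to -0.10 with the gene length trend removed. Lama5, the other alpha chain of vessels, and Lama3, an alpha chain of epithelia, had log2 fold changes of 0.35 and 0.55, and neither passed the threshold. Lama1, the alpha chain of early embryos, was not tested, with 0 to 3 reads in each library.

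Within the alpha chains the balance differed between the groups. On the authors' FPKM (fragments scaled by gene length and library size, a level per gene length), Lama2 made 20.5, 16.9 and 22.5% of the summed laminin alpha level with anti-IgG and 28.02, 34.98 and 31.5% with anti-PD-1. Its share was higher in all anti-PD-1 libraries than in any anti-IgG library, at 31.5 ± 3.48% against 19.96 ± 2.86% (mean ± SD, 3 libraries each). The Lama4 share was 36.3 ± 7.07% against 43.2 ± 3.70%, with overlapping libraries. The log2 ratio of Lama2 to Lama4 within a library, which no library scaling can change, was -0.94, -1.36 and -1.06 with anti-IgG and -0.48, 0.31 and -0.40 with anti-PD-1. The ratio was 1.90-fold higher with anti-PD-1, and the exact 2-sided permutation p was 0.1, the smallest that 3 against 3 libraries can give, or 0.6 after Benjamini-Hochberg adjustment over the 6 ratios computed. Without any 1 library the difference of the log2 ratio stayed between 0.68 and 1.07.

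The beta and gamma chains hold the laminin trimer together, and the gamma chain binds nidogen. None of the 3 tested beta chains and none of the 3 tested gamma chains passed the threshold in edgeR, where 21.1% of all tested genes did. At an unadjusted edgeR p under 0.05 there was 1 of each, Lamb2 and Lamc1. DESeq2 called the same 2 as higher and limma-voom called 0. Lamc1, the gamma chain of nearly all laminins, had 219, 268 and 307 CPM with anti-IgG and 383, 358 and 464 with anti-PD-1. All anti-PD-1 libraries of Lamc1 lay above all anti-IgG libraries, yet with a log2 fold change of 0.60 (SE 0.21) the edgeR adjusted p was 0.0607. With the trend on coding and 3' UTR length removed the estimate of Lamc1 was -0.12, while with no count filter its edgeR adjusted p was 0.0492. Lamb2, the beta chain of muscle and vessel laminins, had 189, 166 and 235 CPM with anti-IgG and 327, 334 and 224 with anti-PD-1. For Lamb2 anti-PD-1 library 3 lay within the control range, and the log2 fold change was 0.58 (SE 0.22) at an edgeR adjusted p of 0.083. Lamb1, the more widely expressed beta chain, had 129, 161 and 171 CPM with anti-IgG and 176, 124 and 207 with anti-PD-1, which overlapped, with a log2 fold change of 0.14 (SE 0.22) and an edgeR adjusted p of 0.688. The log2 ratio of Lamb2 to Lamb1 was 0.46 higher with anti-PD-1 (exact 2-sided permutation p 0.4, adjusted 0.6), and its libraries overlapped.

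Lamb3, a beta chain of epithelial laminins, and Lamc3, a rarer gamma chain, had log2 fold changes of -0.33 and 0.61 with adjusted edgeR p-values of 0.495 and 0.599. The Lamc3 value rests on 2 to 20 reads in each library and has an SE of 0.77. Summed over the family, the alpha chains stood at 21.6 ± 1.28 FPKM under anti-IgG and 32.4 ± 0.68 under anti-PD-1. The beta chains stood at 45.3 ± 6.57 and 62.5 ± 6.45 FPKM and the gamma chains at 31.1 ± 4.89 and 47.7 ± 7.25 (mean ± SD, 3 libraries each). In each of the 3 sums every anti-PD-1 library was above every anti-IgG library, as in 20.2% of single tested genes. These sums carry no correction for the length trend. The median log2 fold change of the 10 tested laminins was 0.45. It was 0.080 with the gene length trend removed and 0.15 with the coding and 3' UTR length trend removed. Lamc1 made 95.6 ± 0.80% of the gamma sum under anti-IgG and 96.5 ± 0.46% under anti-PD-1, and Lamb2 made 66.4 ± 4.05% and 72.8 ± 8.74% of the beta sum. In bulk tissue, a change in the number of cells of a type and a change in RNA per cell cannot be told apart.

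**Figure D2:**
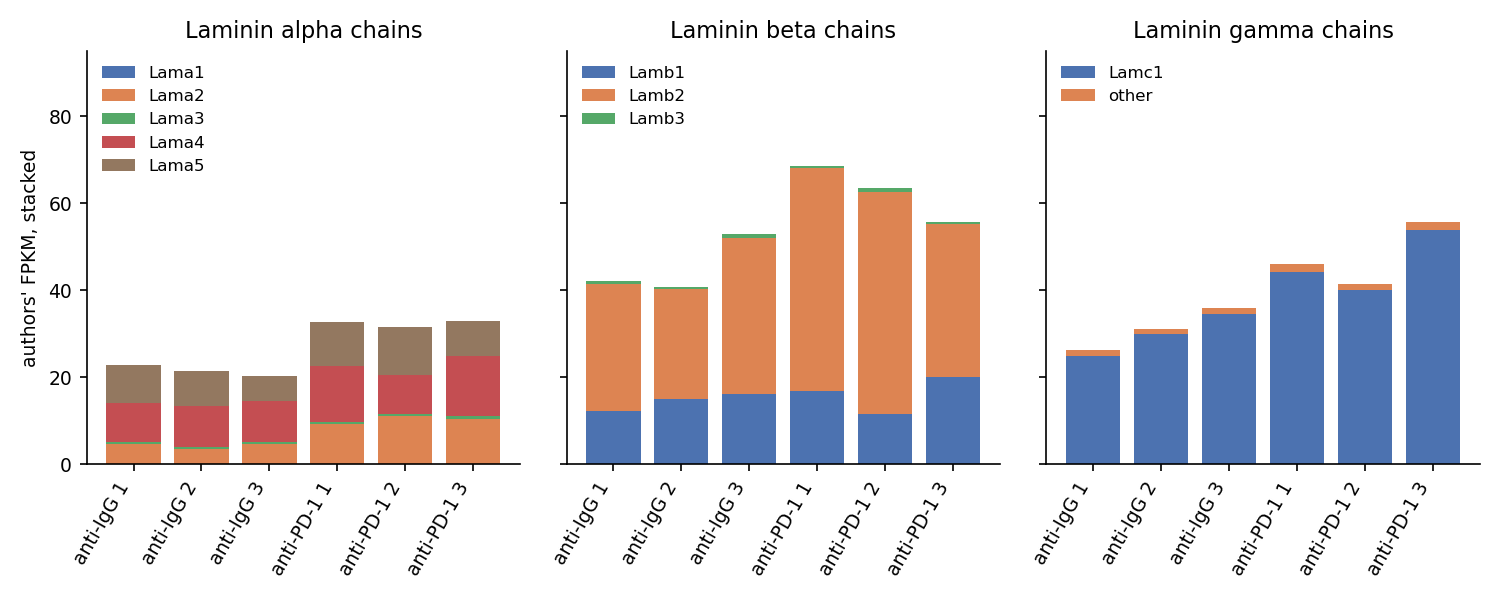
Stacked bars give the authors' FPKM of the laminin alpha, beta and gamma chains (vertical axis, shared; gamma chains other than Lamc1 are summed) in each of the 6 libraries (horizontal axis). The alpha stack is 20.4 to 22.9 FPKM high under anti-IgG and 31.6 to 32.9 under anti-PD-1, and within it the Lama2 segment goes from 4.30 to 10.2 FPKM on average, while Lamb2 and Lamc1 fill most of the other stacks.

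Among the integrins of non-blood cells, a group of 8 held 3 genes that rose and 0 that fell, where 10.3% of all genes rose. Its median log2 fold change was 0.47. The group holds Itga5, Itga8, Itga9, Itgav, Itgb1, Itgb5, Itgb6 and Itgb8, mostly chains of receptors for fibronectin, vitronectin, tenascin or latent TGF-beta. Itgb1 is also shared by other integrins, and Itgb3 was placed with the platelet chains. By limma-voom 2 of the 8 rose, with the gene length trend removed 1, and with the coding and 3' UTR length trend removed 0. Itga9 (ENSMUSG00000039115, mm10 chr9:118606690-118901003, plus strand) encodes alpha 9, which pairs with beta 1 and binds tenascin-C, osteopontin and VCAM-1. It had 62.5, 57.4 and 96.7 CPM with anti-IgG and 205, 153 and 216 with anti-PD-1. Every anti-PD-1 library was far above every anti-IgG library. The log2 fold change of Itga9 was 1.41 (SE 0.24) at an adjusted edgeR p of 0.00644, and the call held without any 1 library, with log2 fold changes of 1.25 to 1.68. With the gene length trend removed it was 1.13 (edgeR adjusted p 0.0201), and removal of the trend on coding and 3' UTR length ended the call at 0.72 (edgeR adjusted p 0.115).

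Read per length, Itga9 went from the tenth place among the 38 genes to the fifth, at 8.75 ± 2.62 FPKM under anti-IgG and 23.6 ± 4.51 under anti-PD-1. It made 11.2, 9.50 and 15.1% of the summed integrin alpha level with anti-IgG and 22.6, 23.4 and 24.5% with anti-PD-1. The anti-PD-1 libraries lay close together and above all controls in that share.

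Itgav (ENSMUSG00000027087, mm10 chr2:83724397-83806916, plus strand) encodes alpha v, the alpha chain shared by the vitronectin receptors and by the integrins that activate latent TGF-beta. It had 43.2, 43.6 and 39.4 CPM with anti-IgG and 94.4, 53.1 and 82.4 with anti-PD-1. The control libraries were close together, and anti-PD-1 library 2 was nearer to them than to the other anti-PD-1 libraries. For Itgav the log2 fold change was 0.87 (SE 0.22) at an edgeR adjusted p of 0.0201. That call ended without anti-IgG library 2 (edgeR adjusted p 0.0871) or 3 (0.0704), without anti-PD-1 library 1 (0.0816) or 3 (0.0583), and with the gene length trend (0.146) or the coding and 3' UTR length trend (0.565) removed.

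Itgb8 (ENSMUSG00000025321, mm10 chr12:119158022-119238802, minus strand) encodes beta 8, which pairs with alpha v and binds latent TGF-beta. It had 3.94, 5.09 and 3.91 CPM with anti-IgG and 13.9, 4.72 and 10.3 with anti-PD-1. Its anti-PD-1 library 2 lay within the control range, so the groups overlapped. For Itgb8 the log2 fold change was 1.16 (SE 0.36) at an edgeR adjusted p of 0.0416. Of the 6 fits that left out 1 library, 1 kept the call, the one without anti-PD-1 library 2 (edgeR adjusted p 0.0115). Limma-voom (adjusted p 0.0869), limma on log2(FPKM + 1) (0.101), upper quartile scaling in edgeR (0.0587) and either length correction in edgeR (0.171 and 0.363) also ended it.

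Itgb1, the beta chain that most alpha chains of heart cells share, was the integrin or laminin gene with the highest level per length in both groups, at 101.5 ± 11.2 FPKM under anti-IgG and 152 ± 15.6 under anti-PD-1. It had 422, 413 and 499 CPM with anti-IgG and 682, 591 and 696 with anti-PD-1. The groups did not overlap, but with a log2 fold change of 0.56 (SE 0.20) the edgeR adjusted p was 0.0661, while DESeq2 gave 0.0127. Without any 1 library the edgeR adjusted p of Itgb1 was 0.0653 to 0.209. Its log2 fold change was 0.59 with the gene length trend removed (edgeR adjusted p 0.0778). With the coding and 3' UTR length trend removed it was 0.38 (edgeR adjusted p 0.251). Itga5, the alpha chain of the fibronectin receptor, had 52.6, 102 and 100.4 CPM with anti-IgG and 99.2, 70.1 and 103 with anti-PD-1. The control libraries spread widely, with library 1 low, and overlapped the anti-PD-1 libraries. The log2 fold change of Itga5 was 0.09 (SE 0.26) at an edgeR adjusted p of 0.832. Its sign turned under 4 alternatives, upper quartile scaling among them. Itgb5, Itga8 and Itgb6, further chains of RGD-binding receptors, had log2 fold changes of 0.38, 0.35 and -0.14, and none passed the threshold.

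Itgb3 (ENSMUSG00000020689, mm10 chr11:104608000-104670476, plus strand) encodes beta 3, which pairs with alpha IIb on platelets and with alpha v on vascular and other cells. It had 4.41, 3.58 and 5.56 CPM with anti-IgG and 14.4, 7.02 and 12.3 with anti-PD-1. All anti-PD-1 libraries were higher, with library 2 closest to the controls. The log2 fold change of Itgb3 was 1.31 (SE 0.30) at an adjusted edgeR p of 0.0155. The call ended without anti-IgG library 2 (edgeR adjusted p 0.0856), in the absence of anti-PD-1 library 1 (0.0676) and with the trend on coding and 3' UTR length removed (0.138), and it held with the gene length trend removed (1.17, edgeR adjusted p 0.033).

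Itga2b, the alpha IIb chain that is the platelet partner of beta 3, stood at -0.30 (SE 0.52) on the log2 scale at an edgeR adjusted p of 0.716, with 12 to 37 reads in each library. Among the platelet markers 3 of 7 were tested, and 0 rose and 1 fell in edgeR, where 10.3% of all genes rose and 10.8% fell. Their median log2 fold change was 0.56. At an unadjusted edgeR p under 0.05 there were 2. The 1 that fell was Pf4, a chemokine of platelet granules, by 1.22 on the log2 scale (edgeR adjusted p 0.0105). With either length trend removed 0 were called, and the median of the 3 was 1.11 (gene length) or 0.98 (coding and 3' UTR length). The summed platelet markers stood at 17.8 to 29.0 CPM under anti-IgG and 13.6 to 15.2 under anti-PD-1. The part of platelets in the Itgb3 level was not tested.

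**Figure D3:**
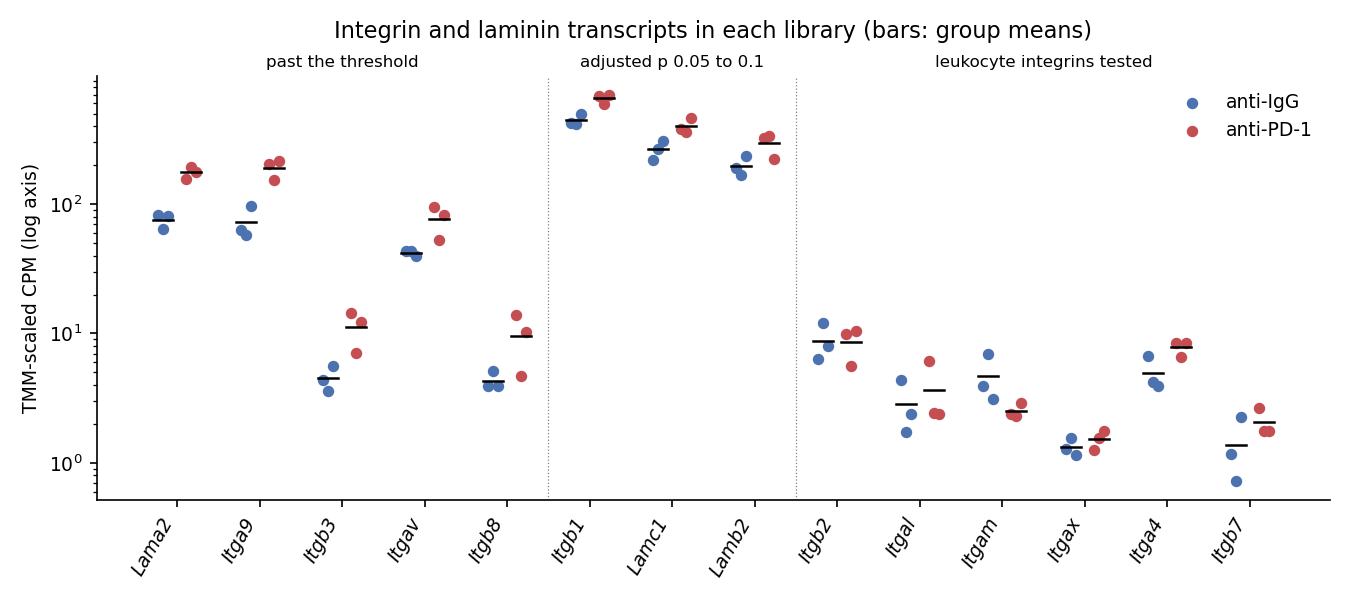
Points are single libraries and short bars are group means of TMM-scaled CPM on a log axis (vertical) for 14 integrin and laminin genes (horizontal axis), anti-IgG left and anti-PD-1 right of each name. Lama2, Itga9, Itgb3 and Itgav show separate groups, Itgb8 has 1 anti-PD-1 library among the controls, and the leukocyte integrins at the right stay at or below 12.03 CPM with mixed directions.

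The laminin-binding integrins join cells to the basement membrane, and 0 of the 4 passed the threshold in edgeR, DESeq2 or limma-voom. At an unadjusted edgeR p under 0.05 there were 0. Over all tested genes edgeR called 21.1%, and 4 genes are too few to set against that share. Itga7, the main laminin receptor chain of heart and skeletal muscle, had 106, 96.8 and 126 CPM with anti-IgG and 142, 115 and 121 with anti-PD-1. The groups overlapped, and the log2 fold change of Itga7 was 0.20 (SE 0.18) at an edgeR adjusted p of 0.447. It turned to -0.08 with the gene length trend removed. Its log2 ratio to Itga5 within a library differed by 0.07 between the groups (exact 2-sided permutation p 0.9, adjusted 0.9). Itga6, the laminin receptor chain of endothelium, had a log2 fold change of 0.18 (edgeR adjusted p 0.589). The log2 ratio of Itga6 to Pecam1, an endothelial adhesion molecule, differed by 0.05 (exact 2-sided permutation p 0.8, adjusted 0.9). Itga3 and Itgb4, receptor chains of epithelia and some other cells, had log2 fold changes of 0.37 and -0.05. Among the endothelial markers 4 of 10 fell (Egfl7, Cldn5, Esam and Fabp4), where 10.8% of all genes fell. With the gene length trend removed 2 of the 10 fell, and with the coding and 3' UTR length trend removed 1. These markers summed to 2231 to 2391 CPM under anti-IgG and 1599 to 1792 under anti-PD-1. Their part in the levels of Itga6 and Lama4 was not tested.

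Of the 4 collagen-binding alpha chains 0 passed the threshold in edgeR, DESeq2 or limma-voom, where edgeR called 21.1% of all tested genes. In 1, Itga10, the unadjusted edgeR p was under 0.05. So few genes cannot show a share different from that of all genes. Itga10, a collagen receptor chain best known from cartilage, had 10 to 48 reads in each library and a log2 fold change of -1.15 (SE 0.48) at an edgeR adjusted p of 0.105. Its exons share 33.5% of their bases with the predicted gene Gm42957 on the same strand, which had 0 to 2 reads in each library. Itga1, a collagen receptor chain of smooth muscle and stroma, had a log2 fold change of 0.38 (edgeR adjusted p 0.224). Itga2 and Itga11 had log2 fold changes of 0.23 and 0.37.

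Leukocyte integrins serve the adhesion and traffic of blood-borne cells. Of 9 leukocyte chains, 6 were tested, and 0 rose and 0 fell in edgeR, as in DESeq2 and limma-voom. At an unadjusted edgeR p under 0.05 there were 2, Itga4 and Itgam, in opposite directions. The median log2 fold change of the 6 was 0.28. Among the 18 tissue and platelet integrins 4 rose and 0 fell, with a median of 0.36. That made 22.2% called, close to the 21.1% called among all tested genes. After removal of the gene length trend the medians were 0.17 for the leukocyte chains and 0.080 for the others, and with the coding and 3' UTR length trend removed 0.089 and -0.0016, so the order of the sets turned. Whether the 2 sets of integrins differ was not tested.

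Itgb2 encodes beta 2, the beta chain shared by the leukocyte receptors LFA-1 and Mac-1. It had 6.40, 12.03 and 8.01 CPM with anti-IgG and 9.82, 5.57 and 10.4 with anti-PD-1. The libraries of both groups were intermixed, and the log2 fold change of Itgb2 was -0.03 (SE 0.31) at an edgeR adjusted p of 0.948. Relative to Ptprc, which encodes CD45 of all leukocytes, the log2 ratio of Itgb2 was 0.31 lower with anti-PD-1, from 1.66 ± 0.36 to 1.34 ± 0.37 (exact 2-sided permutation p 0.3, adjusted 0.6).

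Itgal, the alpha chain of LFA-1 on lymphocytes and other leukocytes, had 4.35, 1.73 and 2.40 CPM with anti-IgG and 6.13, 2.41 and 2.40 with anti-PD-1. Library 1 of each group was the high one. For Itgal the log2 fold change was 0.36 (SE 0.47) at an edgeR adjusted p of 0.604, and without anti-PD-1 library 1 it was -0.23. Itgam, the alpha chain of Mac-1 on macrophages and neutrophils, had 3.94, 6.94 and 3.10 CPM with anti-IgG and 2.39, 2.30 and 2.88 with anti-PD-1. Every anti-PD-1 library was below every control library, yet with a log2 fold change of -0.88 (SE 0.36) the edgeR adjusted p was 0.101. Of the exonic bases of Itgam, 68.7% also belong to the predicted gene Gm49368 on the same strand, which had 0 reads in all 6 libraries. No source used here says how reads on such shared bases were counted, so the counts of Itgam and Itga10 may lack reads. The log2 ratio of Itgal to Itgam was 1.13 higher with anti-PD-1 (exact 2-sided permutation p 0.3, adjusted 0.6), and its libraries overlapped.

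Itga4, the alpha 4 chain of the VCAM-1 receptor on leukocytes, had 6.71, 4.25 and 3.96 CPM with anti-IgG and 8.43, 6.59 and 8.50 with anti-PD-1. The groups overlapped only through anti-IgG library 1. The log2 fold change of Itga4 was 0.66 (SE 0.28) at an edgeR adjusted p of 0.11, it passed the threshold without that library (0.94, edgeR adjusted p 0.035), and it was -0.07 with the trend on coding and 3' UTR length removed. Itgax and Itgb7, chains of dendritic cell and gut-homing lymphocyte receptors, had 13 to 53 reads in each library and log2 fold changes of 0.20 and 0.57. Itgae, the chain of CD103 on tissue-resident lymphocytes, was not tested, with 7 to 27 reads in each library. Itgad, a beta 2 partner of macrophages, had 0 to 7 reads and Itgb2l, a beta 2 relative, had 0 to 2. The leukocyte markers stood at 167 to 261 summed CPM under anti-IgG and 181 to 241 under anti-PD-1. Of 20 such markers 16 were tested, 1 rose (Adgre1) and 4 fell (Cd52, Tyrobp, Fcer1g and Cd79a). Among all genes 10.3% rose and 10.8% fell. With the gene length trend removed 1 marker rose and 1 fell, and with the coding and 3' UTR length trend removed 2 rose and 1 fell. None of the markers was at 0 in all libraries. Their part in the leukocyte integrin levels was not tested.

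Summed per length, the leukocyte integrins stood at 4.54, 6.06 and 4.71 FPKM with anti-IgG and 6.23, 3.97 and 5.99 with anti-PD-1. These sums overlapped. The other integrins stood at 196, 199 and 232 FPKM with anti-IgG and 324, 255 and 319 with anti-PD-1, which did not overlap. The leukocyte share of all integrin FPKM was therefore small in every library, at 2.40 ± 0.50% under anti-IgG and 1.75 ± 0.20% under anti-PD-1 (mean ± SD, 3 libraries each). It ran from 1.99 to 2.96% in the controls and from 1.53 to 1.89% with anti-PD-1, without overlap. Of single tested genes, 20.8% had all anti-PD-1 libraries below all anti-IgG libraries. These FPKM carry no correction for the length trend. The tested leukocyte chains had a median length of 4913.5 bp and the other integrins one of 7063 bp. The difference in share was not tested.

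**Figure D4:**
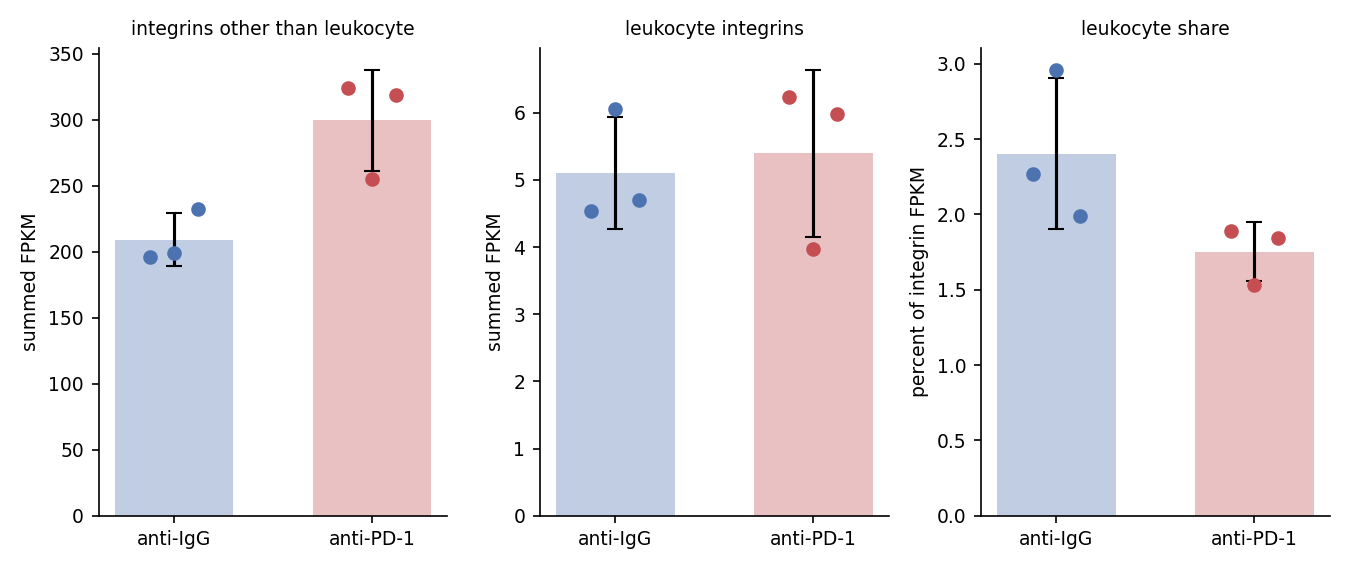
The 3 panels give the summed FPKM of the integrins other than leukocyte ones, the summed FPKM of the leukocyte integrins, and the leukocyte part as percent of all integrin FPKM (vertical axes), for anti-IgG and anti-PD-1 (horizontal axes). Bars are means from 0, error bars are 1 SD and points are the 3 libraries of a group. The leukocyte sums overlap, and the share is 1.53 to 1.89% with anti-PD-1 and 1.99 to 2.96% with anti-IgG. No value here is corrected for the length trend, and the difference in share was not tested.

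Ordered by FPKM in the anti-IgG libraries, Itgb1 led the 38 genes and was followed by Itgb5 at 33.1 ± 4.96, Lamb2 at 30.1 ± 5.46 and Lamc1 at 29.8 ± 4.90, which lay within their SDs of each other. Itga6 came next at 18.8 ± 1.10 FPKM, then Itga5 at 16.0 ± 5.23, Lamb1 at 14.4 ± 1.97 and Itga7 at 12.6 ± 1.75. In that order neighbours from Itga6 to Itga7 did not differ beyond their SDs, while Lama4 came after Itga7 at 9.29 ± 0.25 FPKM. With anti-PD-1 Itgb1, Itgb5, Lamb2 and Lamc1 again came first, with Lamc1 in the second place. Lama2 stood at 4.30 ± 0.59 FPKM under anti-IgG and 10.2 ± 0.96 under anti-PD-1, and Itgav at 3.64 ± 0.19 and 6.76 ± 1.95. Itgb3 and Itgb8 were low genes, at 0.71 ± 0.16 and 0.36 ± 0.05 FPKM with anti-IgG and 1.81 ± 0.63 and 0.83 ± 0.40 with anti-PD-1.

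Inside the cell integrins act through focal adhesion proteins, and of 33 tested genes of a list of 34 adaptors and signalling proteins 5 rose and 2 fell in edgeR, a share close to the 21.1% called among all tested genes. The median log2 fold change of that list was 0.20. The 5 that rose were Vcl, Tln2, Flnc, Tns1 and Lims1, and the 2 that fell were Itgb1bp2 and Sharpin. Vcl encodes vinculin, which ties talin to actin at the costameres of cardiomyocytes. It had 31.9, 17.6 and 34.8 CPM with anti-IgG and 88.0, 78.3 and 81.1 with anti-PD-1. All anti-PD-1 libraries were far above the controls, and the log2 fold change of Vcl was 1.55 (SE 0.24) at an edgeR adjusted p of 0.00508, a call that held without any 1 library and with either length trend removed (edgeR adjusted p 0.0149 and 0.0282).

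Tln2, the talin of striated muscle that opens integrins for binding, had 69.5, 57.6 and 69.4 CPM with anti-IgG and 126, 166 and 103 with anti-PD-1, which gave a log2 fold change of 1.01 with SE 0.21 (edgeR adjusted p 0.0107). Flnc, the muscle filamin, had 203, 208 and 399 CPM and 717, 564 and 765, which gave a log2 fold change of 1.34 with SE 0.29 (edgeR adjusted p 0.012). Neither had overlapping groups. Tns1, tensin 1, had a log2 fold change of 1.03 (edgeR adjusted p 0.0204). Itgb1bp2, or melusin, a muscle protein that binds the tail of beta 1, had 83.2, 92.7 and 133 CPM with anti-IgG and 43.0, 66.8 and 59.5 with anti-PD-1. It fell by 0.87 on the log2 scale (edgeR adjusted p 0.0249), with all anti-PD-1 libraries below all controls. Sharpin, a protein that holds integrins inactive, fell by 0.66 (edgeR adjusted p 0.0411). Every edgeR call named here for this list other than that of Vcl ended without anti-IgG library 2. Those of Tns1 and Lims1 also ended when control library 3 or anti-PD-1 library 1 was left out, that of Itgb1bp2 held in 2 of the 6 fits without 1 library and that of Sharpin in 1. With the gene length trend removed 2 of the list, Vcl and Lims1, rose and 0 fell, as with the trend on coding and 3' UTR length removed.

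Dystroglycan is the other grip of muscle on laminin alpha 2, and 4 of 12 tested genes of a list of further laminin receptors and their partners rose while 1 fell in edgeR, where 10.3% of all genes rose and 10.8% fell, and the median log2 fold change was 0.11. Dag1, dystroglycan itself, had 228, 177 and 235 CPM with anti-IgG and 440.3, 489 and 344 with anti-PD-1. All anti-PD-1 libraries were above the controls, with a log2 fold change of 0.99 (SE 0.21) and an edgeR adjusted p of 0.0124. Dmd, dystrophin, which joins dystroglycan to actin, had 91.6, 71.2 and 62.6 CPM with anti-IgG and 150.1, 195 and 152 with anti-PD-1. Its groups did not overlap either, with a log2 fold change of 1.14 (SE 0.21) and an edgeR adjusted p of 0.00744. Sgcb, a sarcoglycan of the same complex, rose by 0.58 on the log2 scale (edgeR adjusted p 0.0482), and of the 4 genes that rose these 3 are described. Rpsa, a ribosomal protein also described as a laminin receptor, fell by 0.71 (edgeR adjusted p 0.033), and it has many near-identical copies that could share its reads. Leaving out anti-IgG library 2 ended the call of Dag1, those of Sgcb and Rpsa held in 1 of the 6 fits without 1 library, and that of Dmd held in all 6. With the gene length trend removed Dag1 and Dmd still rose (edgeR adjusted p 0.035 and 0.042), and with the coding and 3' UTR length trend removed none of the list passed.

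Laminin is woven into the basement membrane with nidogens, type IV collagens and heparan sulfate proteoglycans, and of 18 such partners tested 1 rose and 0 fell in edgeR, and the median log2 fold change was 0.19, where 21.1% of all genes were called. Under either length correction 0 were called in edgeR and the median turned to -0.11 (gene length) or -0.25 (coding and 3' UTR length). At an unadjusted edgeR p under 0.05 there were 3, DESeq2 gave 2 that rose and 0 that fell, and limma-voom 1 and 0. The 1 was Hspg2, perlecan, with 551, 512 and 607 CPM with anti-IgG and 849, 797 and 959.6 with anti-PD-1. Its groups did not overlap, and its log2 fold change was 0.64 (SE 0.20) at an edgeR adjusted p of 0.0446. That call ended without any 1 of the 6 libraries, at edgeR adjusted p-values of 0.0509 to 0.158. Corrected for gene length the log2 fold change of Hspg2 was 0.18 (edgeR adjusted p 0.623), and with the coding and 3' UTR length trend removed it was 0.018 (edgeR adjusted p 0.972).

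Among 27 listed ligands of integrins 18 were tested, 2 rose and 2 fell, again close to the 21.1% called among all genes, and the median log2 fold change was 0.17. Vwf, von Willebrand factor, a platelet ligand made by endothelium, had 42.6, 42.3 and 53.9 CPM with anti-IgG and 129.5, 102 and 75.2 with anti-PD-1, which gave a log2 fold change of 1.14 with SE 0.22 (edgeR adjusted p 0.00883). Fbn1, fibrillin 1 of the microfibrils, had 153, 134 and 132 CPM with anti-IgG and 324, 189 and 519 with anti-PD-1, which gave a log2 fold change of 1.30 with SE 0.31 (edgeR adjusted p 0.0189). Both were higher in all anti-PD-1 libraries, though Fbn1 spread widely there. Icam2, an endothelial ligand of LFA-1, had 31.1, 41.7 and 43.7 CPM with anti-IgG and 16.9, 18.2 and 18.9 with anti-PD-1. It fell by 1.11 on the log2 scale (edgeR adjusted p 0.00644), without overlap. Vtn, vitronectin, the ligand for which the alpha v receptors are named, fell by 0.86 (edgeR adjusted p 0.00927). Leaving out anti-IgG library 2 ended the calls of Vwf, Fbn1 and Vtn, and that of Fbn1 held in 2 of the 6 fits without 1 library. With the gene length trend removed, Icam2 alone of the list was called (edgeR adjusted p 0.0356), and with the coding and 3' UTR length trend removed, Vwf alone (edgeR adjusted p 0.039).

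**Figure D5:**
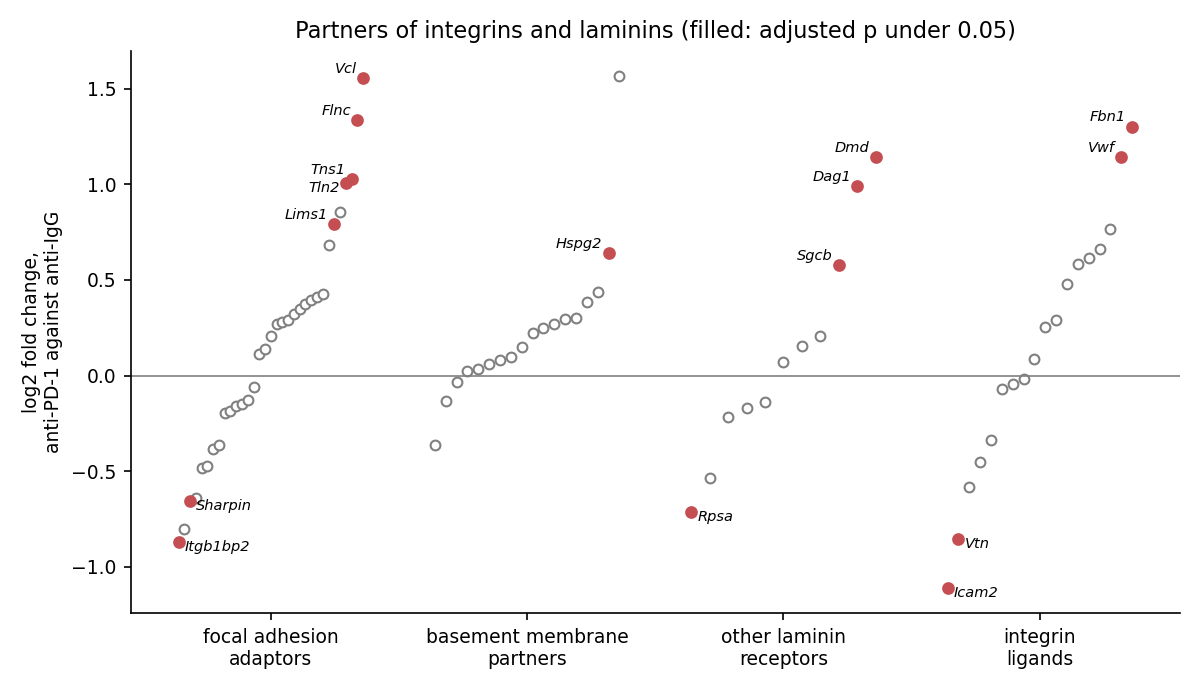
Each point is a tested gene of the 4 partner lists (horizontal axis, ordered by value within a list, with 1 gene not drawn), and the vertical axis is its log2 fold change, anti-PD-1 against anti-IgG, from edgeR. Filled, named points have an adjusted p under 0.05 and run from -1.11 for Icam2 to 1.55 for Vcl.

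The libraries held 18063344 to 21093163 counts. Libraries of the same group differed by far more than counting error, and chi-square over its degrees of freedom ran from 46.6 to 75.1 between them. The tissue label was checked on markers: the ventricular genes summed to 7051 to 10179 CPM under anti-IgG and 2349 to 5097 under anti-PD-1, 1 of them (Myl2) fell, and 5 atrial markers summed to 18.03 to 22.5 CPM under anti-IgG and 20.7 to 28.1 under anti-PD-1, with 1 of them, Sln, at 0 in all libraries. Of 10 cardiomyocyte markers 1 rose and 3 fell (sums of 32152 to 36742 and 23203 to 37151 CPM), and of 10 smooth muscle and pericyte markers 1 rose and 1 fell (2130.4 to 2590 and 2516 to 2855 CPM). Among all genes 10.3% rose and 10.8% fell. With the gene length trend removed 1 cardiomyocyte marker rose and 1 fell, and 1 smooth muscle and pericyte marker rose and 0 fell. With the coding and 3' UTR length trend removed 1 cardiomyocyte marker fell, and 0 smooth muscle and pericyte or ventricular markers were called. Of 10 fibroblast markers 0 passed in edgeR, DESeq2 or limma-voom, with 1 at an unadjusted edgeR p under 0.05 (3072 to 4383 and 3284 to 5300.2 CPM). Their part in the members' levels was not tested.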

How the data were processed

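The 6 libraries are mRNA-seq of left ventricle. The authors deposited raw read counts per gene; per the submitters' processing notes the build is mm10 and the counter featureCounts (no version), while the aligner and any use of strand are not given in the sources used here. Also, the authors deposited FPKM, which equal the counts divided by gene length and by a constant of 0.953 to 1.15 times each library's total. Testing used edgeR 4.0.16 (R 4.3.3) on the counts (filterByExpr, TMM, quasi-likelihood F test with robust=TRUE, 2-sided, all 6 libraries, Benjamini-Hochberg over all tested genes, threshold 0.05), and the SE is the log2 fold change divided by the square root of F. The edgeR fit and its gene length correction were also run on simulated counts, with outcomes not given here. Alternatives were DESeq2 1.42.0, limma 3.58.1 (voom, and trend on log2(FPKM + 1 or + 0.1)), other scalings and count filters, a replicate block, leaving out each library, and removal of each library's trend (natural spline, 5 degrees of freedom) of log2 CPM on gene length or on GENCODE M21 coding and 3' UTR length. Within-library ratios used an exact permutation test. Promoter stretches come from RefSeq's table. Members past the threshold and Itgal, Itgam, Itgb2, Itga4, Itgb1, Itga7, Itga5, Itgav, Lama2, Lama4, Lamb1, Lamb2 and Lamc1 get values per library, other members ranges, and in partner lists the called genes are named. The members and lists were chosen with earlier results of these data known. The coding and 3' UTR length correction of group medians and partner lists, and leaving out libraries for partner genes, were added after seeing the data. Values of 1 member and of 1 partner gene are not reported here.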

Additional observations from a re-analysis of the deposited data

How the results depend on the processing

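The count of members called moved from 5 to 8 with DESeq2, 3 with the gene length trend removed, 1 with the coding and 3' UTR length trend removed and 3 with that gene length trend and the replicate block. It was 2 to 6 when 1 library was left out, and over all genes 532 to 3646 against 3118. Over all genes 1526 were called with the gene length trend removed, 934 with the coding and 3' UTR length trend removed and 1466 with the gene length trend and the block. The block alone gave 4 members, without Itgb8 (edgeR adjusted p 0.0605), and 3367 genes, and it ended the call of Hspg2 (0.0638). The block with the gene length trend removed ended those of Dag1 (0.0615) and Dmd (0.0675). Same-numbered libraries correlated at 0.12, -0.14 and 0.21 in their deviations, so the numbers were not taken to pair them, and not every library correlated best with its own number. Upper quartile scaling moved the median of all genes to -0.12 and the share of calls that rose from 48.9 to 36.8%.

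Over the 16 members given per library, the alternatives kept direction and side of the threshold in 284 comparisons, ended a call in 24, gave one in 5 and turned a sign in 19. With the gene length trend removed the log2 fold change of Itgb2 was 0.15, Itga7 -0.083, Lama4 -0.10 and Lamb1 -0.23, and with the block added 0.15, -0.072, -0.11 and -0.24. With the coding and 3' UTR length trend removed Itgb2 was 0.062, Itga4 -0.067, Itga5 -0.15 and Lamc1 -0.12. Upper quartile scaling gave Itga5 -0.0011. With 1 library left out, Itgal ran from -0.23 to 0.82, Itgb2 from -0.22 to 0.24, Itga5 from -0.16 to 0.27 and Lamb1 from -0.028 to 0.34. The differences of the log2 ratios Itga7/Itga5 and Itga6/Pecam1 ran from -0.18 to 0.37 and from -0.11 to 0.25. Group medians turned to -0.047 (collagen-binding), -0.11 (laminin-binding) and -0.23 (laminin beta) with the gene length trend removed. With the coding and 3' UTR length trend removed they turned to -0.44 (collagen-binding), -0.096 (laminin gamma) and -0.0016 (integrins other than leukocyte). The cause of these moves was not tested. The 4 untested members did not pass the count filter, with 0 to 27 reads in each library.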
